A study of Mus musculus with 6 samples.

Results

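Of the 22899 genes in each expression table of splenic CD4+ T cells from lean and obese mice, 9 encode the transcription factors that build the red blood cell lineage, or its hormone receptor: Gata1, Klf1, Nfe2, Tal1, Lmo2, Zfpm1, Gfi1b, Myb and Epor. They were chosen by symbol, with the rise of red cell genes in the obese libraries already known, so their obese against lean values are given as a description and carry no test. All 9 symbols were found, once each, in all 6 libraries. C57BL/6 mice received a normal diet (lean, 3 libraries) or a diet with 60 kcal% fat (obese, 3 libraries), started at 6 to 8 weeks of age in general and kept up for at most 4 months. Both groups were wild-type by their labels, which give the strain and no other allele or agent, and the cells were sorted from spleen by flow cytometry. Sex, the number of mice per library and whether libraries came from separate mice are not stated, so the spread between libraries may be partly technical.

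Red cells arise from progenitors that switch from Myb and Gata2 to Gata1, the zinc finger factor that opens the red cell programme. Gata1 acts with the cofactor Zfpm1 (FOG1) and in a complex in which Tal1 contacts DNA, Lmo2 bridges the proteins and Ldb1 brings distant sites together, while Klf1 and Nfe2 drive globin and red cell membrane genes and Gfi1b represses others. Epor, the receptor of erythropoietin, signals through Jak2 and Stat5 and keeps the precursors alive. In adult mice the spleen makes red cells beside the bone marrow, more so under stress. Mature CD4+ T cells are not known to depend on Gata1, Klf1 or Epor; they use the relatives Gata3, Klf2 and Gfi1.

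Values are FPKM, read fragments corrected for how long a transcript is and how many fragments the library mapped, and they allow levels to be compared between genes because they are scaled by length. The FPKM of a library summed to 595106 to 656303. The libraries were those of T cells by their defining markers, with Cd4 at 279.31 to 362.61 FPKM and Cd3e, a chain of the T cell receptor complex, at 346.2 to 454.87 FPKM. They also held transcripts that mark other cell types, and the source of these transcripts was not tested. The 4 globin genes Hba-a1, Hba-a2, Hbb-bs and Hbb-bt summed to 167.17, 466 and 200.05 FPKM in lean 1, 2 and 3, and to 28744, 4299 and 23178 FPKM in obese 1, 2 and 3. Obese 2 thus held the fewest red cell transcripts of the obese libraries. In bulk RNA, fewer cells of a type and less RNA per cell cannot be told apart.

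The regulatory sequences in front of these genes show which letters the factors could recognise. RefSeq (GRCm38.p6) promoter windows were matched for 7 of the 9 members by gene number, all but Nfe2 and Lmo2, and gave 8 windows of the 250 bases before a transcription start, since Tal1 has a pair of starts. The windows of the members with the largest obese to lean ratio (Klf1, Epor), of Gata1 itself and of the member with the smallest ratio (Zfpm1) are shown, 5′ to 3′ on the strand of the gene. Capitals mark the GATA motif, spelled AGATAA or AGATAG or TGATAA or TGATAG, and the KLF motif, spelled CCNCNCCC, each searched on both strands.
Klf1 promoter, chr8:84901732-84901981, plus strand: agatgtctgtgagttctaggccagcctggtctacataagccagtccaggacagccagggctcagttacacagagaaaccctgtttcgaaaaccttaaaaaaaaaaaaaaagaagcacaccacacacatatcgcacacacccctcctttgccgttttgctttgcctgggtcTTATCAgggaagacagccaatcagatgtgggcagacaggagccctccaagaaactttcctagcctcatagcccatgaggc
Epor promoter, chr9:21963577-21963826, minus strand: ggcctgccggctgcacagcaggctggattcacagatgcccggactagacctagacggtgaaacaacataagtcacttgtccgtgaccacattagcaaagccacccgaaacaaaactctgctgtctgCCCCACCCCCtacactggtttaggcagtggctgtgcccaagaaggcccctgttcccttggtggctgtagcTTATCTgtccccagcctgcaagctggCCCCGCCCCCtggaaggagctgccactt
Gata1 promoter, chrX:7967911-7968160, minus strand: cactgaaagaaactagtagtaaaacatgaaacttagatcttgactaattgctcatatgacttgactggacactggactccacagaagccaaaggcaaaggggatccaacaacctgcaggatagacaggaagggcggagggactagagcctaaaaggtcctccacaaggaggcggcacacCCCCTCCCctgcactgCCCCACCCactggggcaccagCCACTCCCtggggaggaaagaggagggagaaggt
Zfpm1 promoter, chr8:122281891-122282140, plus strand: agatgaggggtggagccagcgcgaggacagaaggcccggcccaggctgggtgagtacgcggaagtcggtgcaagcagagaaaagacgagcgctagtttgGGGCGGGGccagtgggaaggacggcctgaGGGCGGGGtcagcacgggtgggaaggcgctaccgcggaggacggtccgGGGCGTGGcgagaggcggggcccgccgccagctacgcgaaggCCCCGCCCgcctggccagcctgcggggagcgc

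The GATA motif was found in 4 of the 8 windows, and in 26.5% of the 32851 windows of all genes. It began 80 bases before the start in Klf1, 54 in Epor, 120 in Gfi1b and 205 at the upstream start of Tal1, and had no match in Gata1, Zfpm1 or Myb or at the other Tal1 start. The KLF motif was found in 6 of the 8 windows, against 45.9% of all windows, beginning 71, 55 and 34 bases before the start in Gata1. Epor held 4 KLF matches as overlapping pairs, at 124 and 122 and at 28 and 26 bases, and Klf1 held none. The NF-E2 motif TGANTCA was in 0 of the 8 windows and in 6.75% of all. A match is a string of letters and not a measured binding site. The windows of Gata1 and Zfpm1 and the second window of Tal1 lie inside the span of the gene in RefSeq, at starts downstream of the first one.

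Epor and Klf1 stood furthest apart between the groups. Epor (gene 13857, chromosome 9, 21958897 to 21963576, GRCm38) encodes the erythropoietin receptor and was at 2.22, 1.86 and 1.86 FPKM in lean 1, 2 and 3, and at 10.48, 5.42 and 15.99 FPKM in obese 1, 2 and 3. The lowest obese library was above the highest lean one, and obese 3 was highest. Its mean was 5.37 times higher in obese libraries (10.6 ± 5.29 against 1.98 ± 0.208 FPKM, SD, n = 3 each), and the log2 difference on the log2(FPKM + 1) scale, which understates the change of low genes, was 1.86 ± 0.30 (SE).

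Klf1 (gene 16596, chromosome 8, 84901982 to 84905291), the factor that activates adult beta globin, was at 4.93, 4.17 and 4.21 FPKM in the lean libraries and at 15.67, 11.16 and 28.85 FPKM in obese 1, 2 and 3. The groups did not overlap, and the lean libraries lay close together (4.44 ± 0.428 FPKM, SD, n = 3) while the obese ones were spread (18.6 ± 9.19 FPKM, SD, n = 3). The ratio of means was 4.18 and the log2 difference 1.75 ± 0.28 (SE). The log2 profiles of Klf1 and Epor, each taken relative to its lean mean, were 0.138 apart (root mean square over 6 libraries), the second smallest distance among the members. This distance takes in their similar obese to lean differences, the contrast that was in view when the members were chosen. Among obese libraries the obese 1 to obese 2 ratio was 1.40 for Klf1 and 1.93 for Epor, and the obese 3 to obese 1 ratio 1.84 and 1.53.

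Of the DNA-binding complex, Tal1 differed most. Tal1 (gene 21349, chromosome 4, 115056426 to 115071755), a helix-loop-helix factor needed for all blood lineages, was the least abundant member in both groups, at 1.81, 1.07 and 1.73 FPKM in lean and 4.88, 2.64 and 7.79 FPKM in obese 1, 2 and 3. All obese libraries lay above all lean ones, with a ratio of means of 3.32 and a log2 difference of 1.19 ± 0.28 (SE). Lmo2 (gene 16909, chromosome 2, 103957903 to 103981878), the bridging protein, was at 17.36, 20.47 and 15.01 FPKM in lean and at 28.28, 21.99 and 48.71 FPKM in obese 1, 2 and 3. Obese 2 was only just above lean 2, and obese 3 was far above the rest, so the log2 difference of 0.80 ± 0.25 (SE) became 0.49 without obese 3. Lmo2 is also expressed by B cells, whose markers were likewise highest in lean 2 among the lean libraries and in obese 3 among the obese ones.

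Gata1 and Nfe2 differed less and had closely similar profiles. Gata1, the central factor of the programme (gene 14460, chromosome X, 7959260 to 7976663) was at 8.73, 6.32 and 5.68 FPKM in lean 1, 2 and 3 and at 11.1, 8.28 and 15.1 FPKM in obese 1, 2 and 3. The groups overlapped, since obese 2 was below lean 1. Its mean was 1.66 times higher in obese libraries and the log2 difference was 0.64 ± 0.21 (SE). Nfe2 (gene 18022, chromosome 15, 103248212 to 103258403), the p45 subunit of the globin enhancer factor NF-E2, which megakaryocytes also use, followed Gata1 closely. It was at 13.09, 10.23 and 9.64 FPKM in lean and 19.82, 13.29 and 28.36 FPKM in obese libraries, so that obese 2 was only just above lean 1. The log2 difference was 0.79 ± 0.23 (SE), and the profiles of Gata1 and Nfe2, 0.134 apart, were the closest pair among the members. This distance likewise takes in the obese to lean differences of the pair.

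Gfi1b (gene 14582, chromosome 2, 28609450 to 28621982), a zinc finger repressor of red cell and platelet precursors, was at 3.86, 2.73 and 4.33 FPKM in lean libraries and at 6.08, 5.72 and 12.25 FPKM in obese 1, 2 and 3. All obese libraries were above all lean ones, and obese 1 and obese 2 were nearly level. The ratio of means was 2.2 and the log2 difference 0.90 ± 0.26 (SE).

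Zfpm1 and Myb hardly separated the groups. Zfpm1 (gene 22761, chromosome 8, 122281856 to 122337862), the GATA cofactor that T cells also express, was the most abundant member, at 44.29, 45.47 and 42.58 FPKM in lean and 47.65, 49.77 and 51.71 FPKM in obese libraries. The groups did not overlap but their means were only 1.13 times apart (log2 difference 0.17 ± 0.07, SE), and after median-of-ratios scaling the log2 difference was 0.02. That scaling lowered the median difference of all tested genes by 0.13. Myb (gene 17863, chromosome 10, 21124930 to 21160984), a factor of dividing progenitors that is turned down as red cells mature, was at 10.39, 6.98 and 9.1 FPKM in lean and at 7.97, 10.45 and 16.25 FPKM in obese 1, 2 and 3. The groups overlapped, obese 1 being below lean 1 and lean 3, and the log2 difference of 0.32 ± 0.23 (SE) was 0.06 without obese 3. An antisense gene in the reference annotation shares 559 exon bases with Myb, and whether the counting used strand is not stated.

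**Figure D1:**
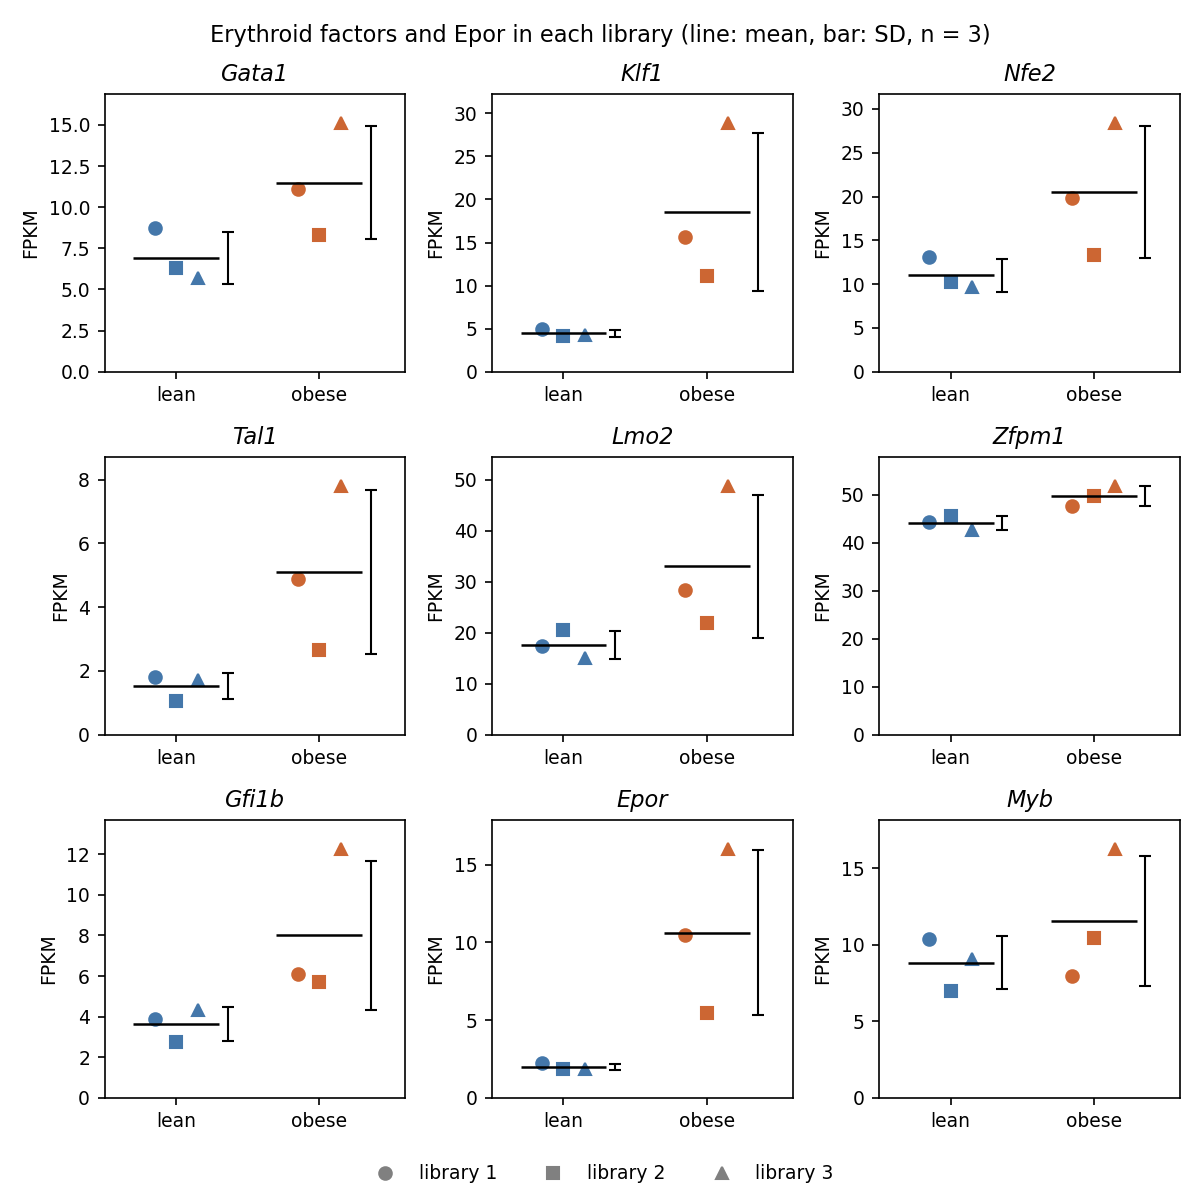
FPKM (linear axis from 0) of each member in the 3 lean (blue) and 3 obese (orange) libraries, with the group mean as a line and the SD as a bar (n = 3). Obese 3 is the highest library in all 9 panels, and the groups overlap only for Gata1 and Myb.

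Across the 9 members, obese 3 was the highest library for 9 and obese 2 the lowest obese library for 7, the exceptions being Zfpm1 and Myb, lowest in obese 1. The share of all tested genes highest in obese 3 was not counted. Its median-of-ratios size factor was the largest, at 1.103, against 1.02 in obese 1, 1.043 in obese 2 and 0.9176 to 0.9663 in lean libraries. Obese 3 was also highest for 19 of 35 tested complex partners and 15 of 26 erythropoietin signalling genes. Among macrophage markers it was highest for 1 of 18, and among T cell identity genes for 0 of 16. All 9 had passed the filter of at least 1 FPKM in at least 3 libraries through the lean libraries alone. Over all 10788 genes tested with limma, 678 had a BH-adjusted p (Benjamini-Hochberg over all tested genes) under 0.05, which is 6.28%: 5.77% were higher and 0.519% lower in obese libraries. Of the members, 3 were among the higher genes (Klf1, Epor and Tal1) and 6 were not. Without obese 2 the count of members was 6, adding Gata1, Nfe2 and Lmo2, and without any other single library it was 2, leaving Klf1 and Epor. All obese libraries lay above all lean ones for 7 members, and for 25.4% of all tested genes. The members' median log2 difference was 0.80, and that of all tested genes 0.10. Since the members were chosen with this contrast in view, nothing is read from these counts. The number of called genes in the whole table was 326 without lean 1 and 318 without lean 2.

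The order of the levels changed between the groups. In lean libraries it ran Zfpm1 (44.1 FPKM), Lmo2 (17.6), Nfe2 (11.0), Myb (8.82), Gata1 (6.91), Klf1 (4.44), Gfi1b (3.64), Epor (1.98) and Tal1 (1.54), as means. The ranges of neighbours overlapped for Nfe2 and Myb, Myb and Gata1, and Klf1 and Gfi1b. Within each of the 3 lean libraries Nfe2 was nonetheless above Myb and Myb above Gata1, while Klf1 was below Gfi1b in lean 3. By the means of the obese libraries Klf1 stood directly after Nfe2, and Epor stood before Gfi1b, and every pair of neighbours overlapped in range. Within single libraries Epor was below Gfi1b in obese 2 (5.42 against 5.72 FPKM). Klf1 was just above Nfe2 in obese 3 (28.85 against 28.36 FPKM). Relative to Gata1 within the same library, Klf1 was at 0.655 ± 0.0883 in lean and 1.56 ± 0.308 in obese libraries, and Epor at 0.292 ± 0.0366 and 0.886 ± 0.208 (ratios of FPKM, SD, n = 3 each), without overlap in either case. The Tal1 to Gata1 ratio ranged from 0.169 to 0.305 in the lean group and from 0.319 to 0.516 in the obese group, hardly apart. The Nfe2 to Gata1 ratio overlapped, reaching 1.70 in lean 3 and starting at 1.61 in obese 2. Gata2, the progenitor relative that Gata1 replaces as red cells mature, was at 0.696 to 0.919 of Gata1 in lean and at 0.35 to 0.483 in obese libraries. Gata2 is also a listed marker of mast cells, basophils and eosinophils and of stem and progenitor cells. It was highest in lean 1, at 7.88 FPKM. The part of these cells in the ratio was not tested.

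**Figure D2:**
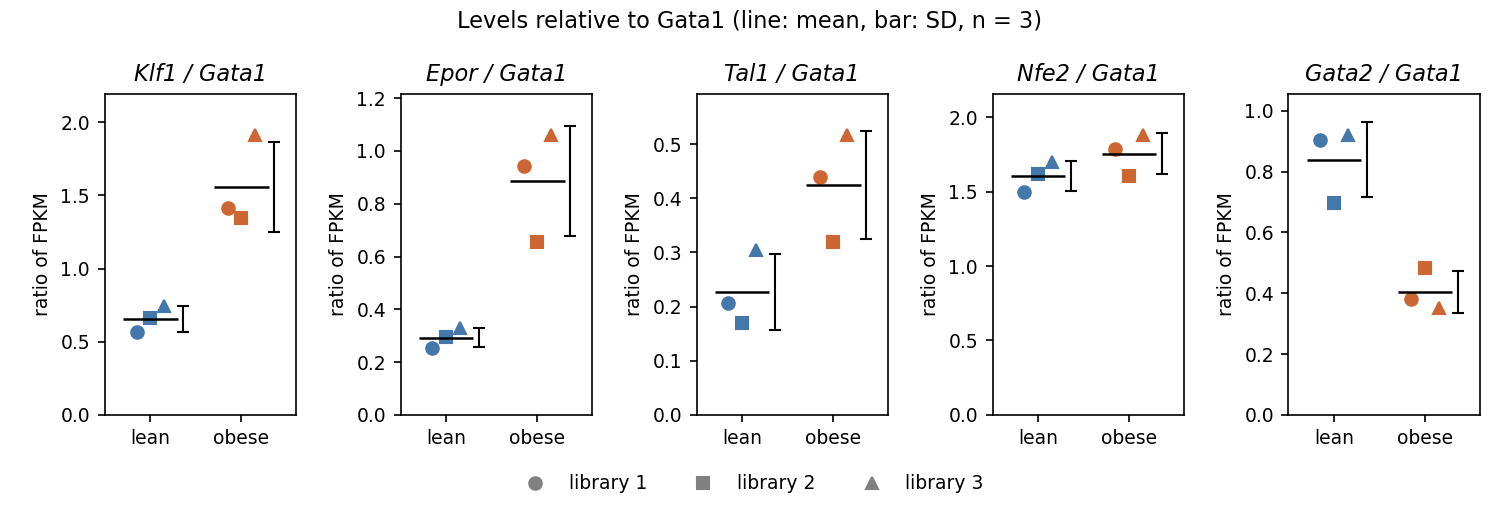
Ratio of FPKM to that of Gata1 in the same library for Klf1, Epor, Tal1, Nfe2 and Gata2 (linear axes from 0; points are libraries, lines means, bars SD, n = 3). The Klf1 and Epor ratios lie higher in all 3 obese libraries (means 1.56 and 0.886) than in the lean ones (0.655 and 0.292), the Gata2 ratio lies lower, and the Nfe2 ratio overlaps.

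The red cell genes that these factors drive had a larger median ratio of obese to lean means than the factors. Of 27 tested red cell genes, 23 rose in obese libraries and none fell (limma, BH-adjusted p under 0.05); the list was known beforehand to be higher in these libraries and is no independent evidence. Its median ratio of obese to lean means was 14.2, with a range of 1.34 to 109.5, against a median of 1.87 and a range of 1.13 to 5.37 for the 9 members. Ank1, the gene at this median, was at 0.35, 0.54 and 0.68 FPKM in lean 1, 2 and 3. It passed the filter through the obese libraries alone and so had to differ, as did some others of the list. All 9 members passed through the lean libraries alone, so the ratios of list and members come from unlike filtering. The part of the filter in the difference was not tested. Slc4a1, which exchanges chloride and bicarbonate across the red cell membrane, had the highest ratio, and was at 0.35, 1.1 and 0.98 FPKM in lean and 107.95, 19.77 and 138.35 FPKM in obese 1, 2 and 3. It was under or near 1 FPKM in lean libraries in which Gata1 was at 5.68 FPKM or more.

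The obese libraries also ranked differently for factors and for globins. Obese 3 exceeded obese 1 for all 9 members, by 1.09 times (Zfpm1) to 2.04 times (Myb), and for 20 of the 27 red cell genes. The size factor of obese 3 was also above that of obese 1 (1.103 against 1.02). For the globin genes obese 3 was below obese 1, with obese 3 to obese 1 ratios of 0.874 for Hba-a1, 0.789 for Hba-a2, 0.75 for Hbb-bs and 0.896 for Hbb-bt. Obese 3 was also below obese 1 for Alas2, which starts haem synthesis in precursors (0.808), Bpgm (0.766) and Epb41 (0.919). It was above obese 1 for the other red cell genes, among them Fech (1.06) and Slc25a37 (1.67). Summed globin FPKM per FPKM of Klf1 was accordingly 1834 in obese 1, 385.2 in obese 2 and 803.4 in obese 3, and 33.9 to 111.8 in lean libraries. Reads can be shared between the near-identical globin copies, so single copies are uncertain.

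**Figure D3:**
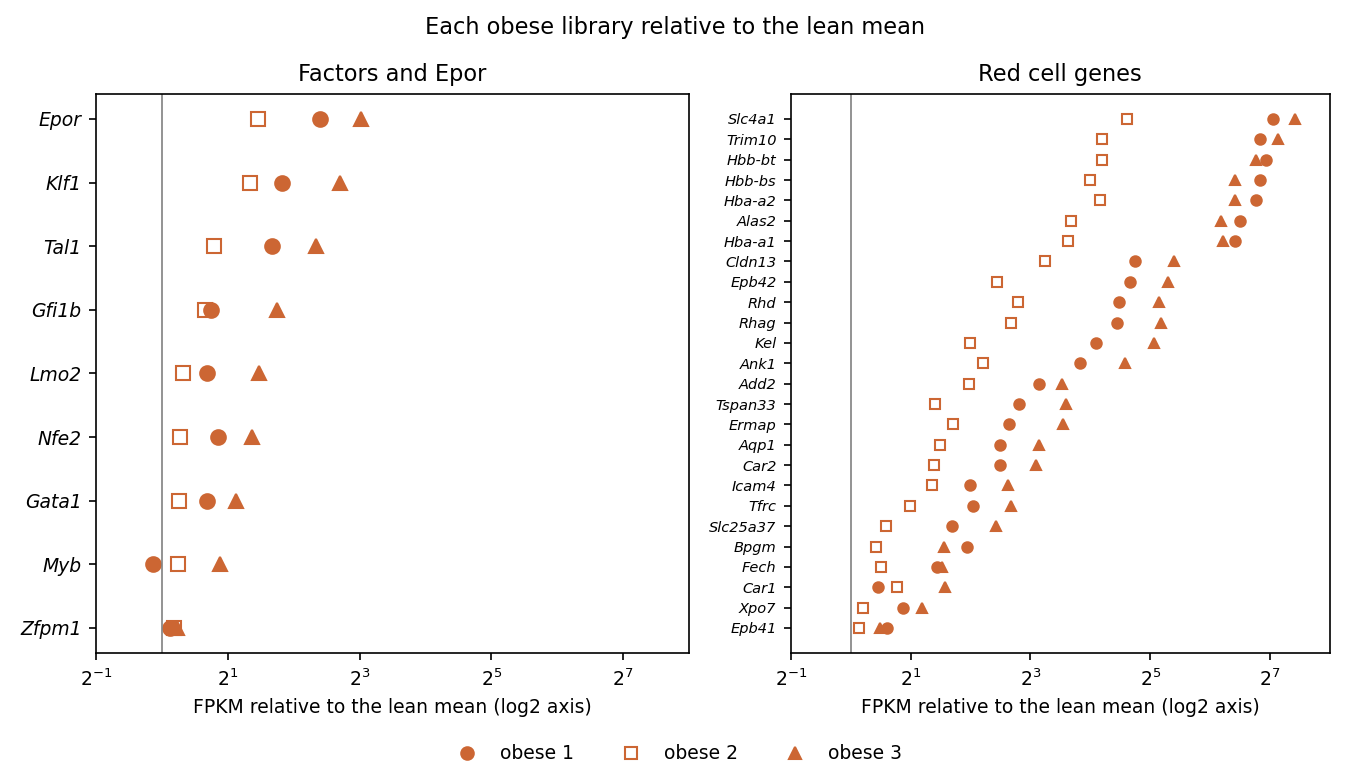
FPKM of each obese library relative to the lean mean (log2 axis; the vertical line at 1 is the lean mean) for the 9 members (left) and 26 of the 27 tested red cell genes (right), sorted by the ratio of means. Epor leads the members at 2.74 to 8.08 times the lean mean, most red cell genes lie further right, and obese 2 (open squares) is the lowest obese library for 7 members and for each red cell gene drawn except Car1.

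The transcripts of proteins that bind these factors were mostly level between the groups. Of 36 genes for complex partners and cofactors 35 were tested, 2 rose and none fell, near the share of all genes that was called (6.28%). At an unadjusted p under 0.05 (limma) 5 were higher and none lower. The median log2 difference was 0.09 against 0.10 for all tested genes. Ldb1, which joins the Tal1 and Lmo2 complex to distant sites, was at 233.78, 229.4 and 227.26 FPKM in lean and 214.51, 217.67 and 196.37 FPKM in obese libraries (log2 difference −0.14 ± 0.07, SE; limma, BH-adjusted p = 0.254). The helix-loop-helix partners of Tal1, Tcf3 and Tcf12, had log2 differences of 0.09 and 0.11, and Runx1, a factor of early blood cells, had 0.05, none past the threshold. Lyl1, the closest relative of Tal1, had 0.39 ± 0.23 (SE; limma, BH-adjusted p = 0.323) and, like the B cell markers, was highest in lean 2 and obese 3 within its groups.

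The called partners were Hemgn and E2f2. Hemgn, a nuclear protein of red cell precursors and a target of Gata1, was at 0.61, 0.55 and 0.99 FPKM in lean and at 9.64, 4.16 and 15.83 FPKM in obese libraries (log2 difference 2.51 ± 0.36, SE). It passed the filter through the obese libraries alone and so had to differ, and its call supports nothing about the partners. E2f2, a cell cycle factor that maturing red cells use, was at 10.47, 11.15 and 10.17 FPKM in lean and 20.43, 14.6 and 24.13 FPKM in obese libraries and rose (log2 difference 0.81 ± 0.16, SE; limma, BH-adjusted p = 0.0219). E2f2 passed only without obese 2 or without obese 3 and reached a limma BH-adjusted p of up to 0.0721 without each of the other libraries, and the count of called partners was 1 without lean 1, lean 2 or obese 1.

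Downstream of Epor, of 30 genes of erythropoietin signalling 26 were tested, 2 rose and none fell, near the share of all tested genes that was called (6.28%). At an unadjusted p under 0.05 (limma) 5 of the signalling genes were higher and none lower. The median log2 difference was 0.16, against 0.10 for all tested genes. Jak2, the kinase bound to the receptor, was at 13.08, 12.12 and 16.7 FPKM in lean and 17.92, 18.48 and 24.76 FPKM in obese libraries, without overlap, and did not pass (log2 difference 0.51 ± 0.15, SE; limma, BH-adjusted p = 0.0822); it passed without lean 3. Stat5a and Stat5b, the transcription factors that Jak2 activates, had log2 differences of −0.03 and 0.03 (limma, BH-adjusted p = 0.831 and 0.847). The genes that rose were Lyn, a Src family kinase also found in B cells and macrophages (0.73 ± 0.13, SE; limma, BH-adjusted p = 0.0130), and Gab2, a docking protein (0.50 ± 0.12, SE; limma, BH-adjusted p = 0.0467). Gab2 did not pass without any 1 library and Lyn not without lean 1 (limma, BH-adjusted p up to 0.154 and 0.0557), so the count was 0 without lean 1, and 1 without lean 2, obese 1 or obese 3. Epo itself, which the kidney makes, was listed at 0 in all 6 libraries.

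Of 28 family relatives of the members 16 were tested, and 0 had a limma BH-adjusted p under 0.05, while 3 higher and 1 lower had an unadjusted p under 0.05. With 6.28% of all tested genes called, a count of 0 in a list of this size is near the background. Gata3, the GATA factor of T cells, was at 21.12 to 26.5 FPKM in lean and 22.5 to 24.03 FPKM in obese libraries, so it lay above Gata1 in each library (log2 difference −0.02; limma, BH-adjusted p = 0.933). Klf2, the KLF factor of resting T cells, was at 415.71 to 510.15 FPKM in lean and 360.04 to 410.01 FPKM in obese libraries, far above Klf1 in every library. Its log2 difference of −0.25 ± 0.10 (SE) did not pass (limma, BH-adjusted p = 0.162). Gfi1, the relative of Gfi1b in lymphocytes, and Nfe2l2, the stress factor related to Nfe2, had log2 differences of −0.18 and 0.24, and Gata2 had −0.29 (limma, BH-adjusted p = 0.275, 0.253 and 0.354). The relatives with the smallest p were Mybl2, a Myb relative of dividing cells (0.61; limma, BH-adjusted p = 0.0836), and Klf3 (0.31; limma, BH-adjusted p = 0.0937). Without lean 3, 2 relatives passed, Nfe2l2 and Klf3.

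Several members are not confined to red cell precursors, and the markers of other cells that use them were in all libraries. The counts of called markers stand beside 6.28% of all tested genes called, 5.77% higher and 0.519% lower, and for the short lists a count of 0 or 1 is near that background. Of 15 tested megakaryocyte and platelet markers, cells that also express Gata1, Nfe2, Tal1 and Gfi1b, none passed with limma (2 higher at an unadjusted p under 0.05), and their summed level was 65.3 to 98.8 FPKM in lean and 95.5 to 124.1 FPKM in obese libraries. Itga2b, their integrin chain, was at 4.64 to 7.27 FPKM in lean and 5.41 to 7.16 FPKM in obese libraries, and none of the 16 listed markers was at 0 in all libraries. Of 10 tested markers of mast cells, basophils and eosinophils, which also use Gata1, 1 rose and none fell (3 lower at an unadjusted p under 0.05), and they summed to 68.3 to 121 FPKM in lean and 47.4 to 81.8 FPKM in obese libraries. The one that rose was the eosinophil chemokine receptor Ccr3 (log2 difference 1.24; limma, BH-adjusted p = 0.00198), chosen after its values were seen. The basophil protease Prss34 was highest in lean 1, at 36.15 FPKM. Lean 1 was also the highest lean library for Gata1, Klf1, Nfe2, Tal1, Epor and Myb. Among lean libraries Prg2 was highest in lean 2 (19.27 FPKM), Ccr3 in lean 3 (2.71 FPKM) and the other tested markers of the list in lean 1. Tpsab1, a mast cell tryptase chosen after its values were seen, was listed at 0 in all 6. Of the same list, Tpsb2 was at 0.05 to 0.33 FPKM and Cpa3 at 2.05 to 4.91 FPKM, so the 0 of Tpsab1 does not stand for the list. The part of these cells in the values of Gata1 and Nfe2 was not tested.

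Stem and progenitor markers, which go with Myb and Kit, gave no call among 8 tested (3 lower at an unadjusted p under 0.05). They summed to 57.4 to 145.9 FPKM in lean and 34.4 to 91.2 FPKM in obese libraries, with the myeloid granule genes Mpo and Elane among them highest in lean 1, at 64.21 and 43.59 FPKM. Kit, the stem cell factor receptor, was at 3.16 to 3.85 FPKM in lean and 3.13 to 4.83 FPKM in obese libraries, and Cd34 at 0.91 to 1.94 and 0.89 to 1.45 FPKM. Of 16 tested cell division genes 5 rose and none fell, beside 5.77% of all tested genes called higher, all 16 were highest in obese 3, and their sum was 245.7 to 295.9 FPKM in lean and 315.4 to 469.6 FPKM in obese libraries. Myb was likewise highest in obese 3, as were the other members, all 12 B cell markers and 20 of 27 tested red cell genes. The part of dividing cells in the Myb values was not tested.

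Markers of macrophages and lymphocytes were measured beside the members. Of 18 tested macrophage and monocyte markers 17 rose and none fell, beside 5.77% of all tested genes called higher. The markers summed to 805.0 to 881.2 FPKM in lean and 1884 to 2072 FPKM in obese libraries (2072, 1884 and 2039 in obese 1, 2 and 3). Of these markers 16 were highest in obese 1 and 5 had their lowest obese value in obese 2, and Lyz2, the lysozyme of myeloid cells, was highest in obese 3, at 901.61 FPKM against 652.56 and 649.87 FPKM in obese 1 and 2. None of the 12 B cell markers passed (3 higher at an unadjusted p under 0.05), with sums of 454.6, 871.8 and 407.1 FPKM in lean 1, 2 and 3 and 580.8, 625.8 and 1099 FPKM in obese 1, 2 and 3. The neutrophil list had 7 of 12 tested markers lower and none higher, beside 0.519% of all tested genes called lower. Ly6g, among the 7, was at 1.1 to 2.41 FPKM in lean and 0.12 to 0.86 FPKM in obese libraries. It passed the filter through the lean libraries alone and so had to differ, and its call supports nothing. None of 16 T cell identity genes passed (0 at an unadjusted p under 0.05), and their sum was lowest in obese 3, at 4519 FPKM against 5218 to 5833 FPKM in the other libraries. The part of these cells in the values of Lmo2, Epor and the rest was not tested.

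**Figure D4:**
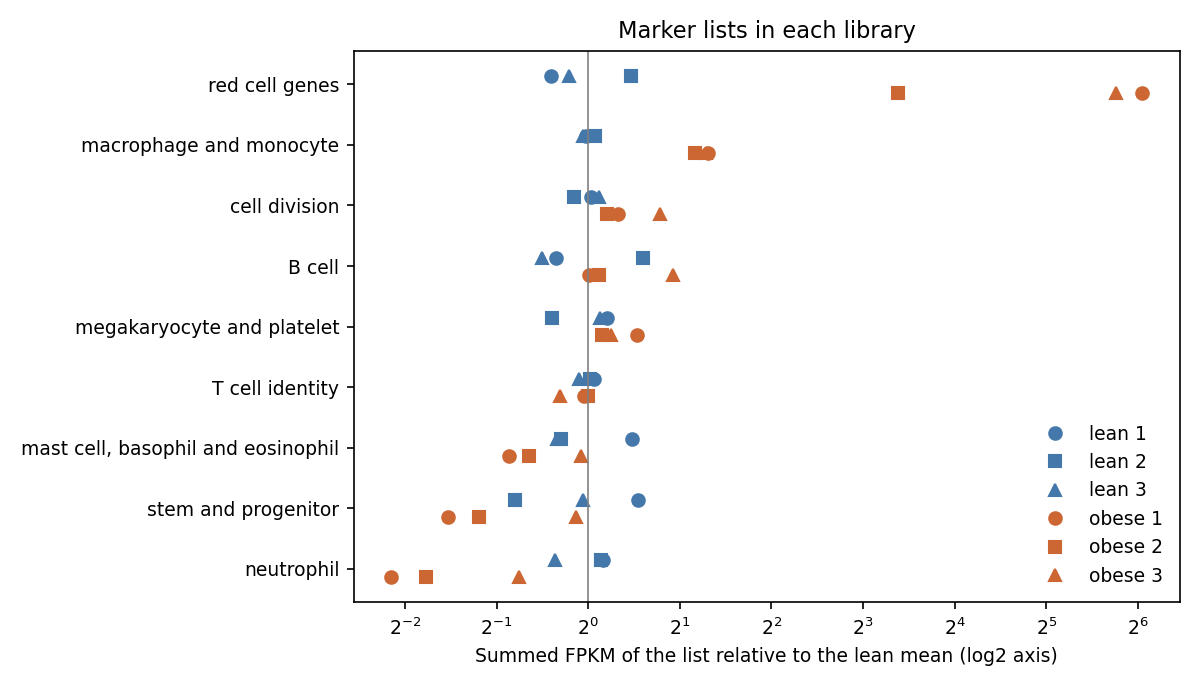
Summed FPKM of each marker list in each library relative to the lean mean of the list (log2 axis; blue lean, orange obese, symbols as library numbers). Red cell genes lie furthest right (4639 to 29544 FPKM in obese libraries against 336.6 to 616.8 FPKM in lean ones), the macrophage sums of the 3 obese libraries lie above those of the lean ones, and megakaryocyte, B cell, T cell, mast cell and progenitor sums overlap between the groups.

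Among 8341 other tested genes that reached 5 FPKM in at least 1 library, without predicted genes, 8 were taken as most like Gata1, by the root mean square distance over the 6 libraries between log2 profiles relative to the lean mean. The nearest was Atpif1, the inhibitor of the mitochondrial ATP synthase (distance 0.0945), at 27.26, 21.99 and 21.72 FPKM in lean and 33.99, 29.34 and 46.2 FPKM in obese 1, 2 and 3. It was nearer to Gata1 than Nfe2 was. Next came Dapk2, a death-associated kinase (0.116), Ptdss2, which makes phosphatidylserine (0.117), Alad, an enzyme of haem synthesis (0.128), and Prdx2, a peroxidase abundant in red cells (0.13). Syce2 (0.142), Abcb6, a porphyrin transporter (0.142), and Pigq, of GPI anchor synthesis (0.145), followed. Their log2 differences lay between 0.54 and 0.72, which the choice by likeness to Gata1 fixes, so no test is given.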

How the data were processed

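RNA of splenic CD4+ T cells was sequenced as 6 libraries, 3 lean and 3 obese, grouped by their titles. The authors deposited 1 table per library with 22899 genes and FPKM values of 2 decimals. The submitters' processing notes name Bowtie, RSEM, GRCm38 and mm10. Not given in the sources used here are versions, annotation, filters and strand use. The tables hold no read counts. Ratios of low values (0.1 to 0.6 FPKM) between libraries showed no whole-read step, with at most 9.46% of genes in the fullest bin of 0.1 log2, so the depth is unknown and precision comes from the spread between libraries.

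Tests used log2(FPKM + 1). A gene needed 1 FPKM or more in 3 libraries or more, which 10788 met. They were fitted by limma 3.58.1 (R 4.3.3; linear model with group as the only term, moderated variances with a trend; 2-sided), with Benjamini-Hochberg adjustment over all of them and a threshold of 0.05. The SE is limma's. The fit was tested on simulated data. Loci come from RefSeq (GRCm38.p6), in which 21633 of the gene numbers were found, and overlaps from GENCODE on GRCm38.

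The members and lists were chosen with earlier results of these data known. Named genes were the 9 members; up to 4 called genes of each pathway list (complex partners, erythropoietin signalling, family relatives) with the smallest adjusted p, or the 2 with the smallest p; the 2 most abundant genes of each cell type list; a fixed set; and the 8 genes most like Gata1. Some of these are given only as part of their list. The alternatives tried were median-of-ratios scaling, TPM scaling, quantile normalization, a pseudocount of 0.1, looser or mean-based filters, no trend, the replicate number as a block, and each library left out in turn. Ahsp, of the red cell list, was not matched to a symbol in the tables. 1 gene of that list is not reported here by itself; it stays in the counts and sums of the list.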

Additional observations from a re-analysis of the deposited data

How the results depend on the processing

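All 9 members kept a positive log2 difference under each of the 14 alternatives, which their choice makes no sign of stability. The lowest values were 1.39 for Klf1 and 1.53 for Epor, both without obese 3. The count of members called was 2, without Tal1, under quantile normalization, without a filter and without the variance trend. The Zfpm1 difference was 0.02 after median-of-ratios scaling and 0.23 after TPM scaling. Of 47 other named genes, not counting the 8 most like Gata1, 36 stayed on the same side of the threshold under all alternatives, and no called direction was reversed. Without a filter beyond a value above 0, limma called 368 genes in all and 1 complex partner; after quantile normalization it called 440 genes, 1 partner and 1 erythropoietin signalling gene; after median-of-ratios scaling it called 1 erythropoietin signalling gene. Leaving out 1 library at a time gave 318 to 698 called genes, 2 to 6 members, 1 to 2 partners, 0 to 3 signalling genes and 0 to 2 relatives. Of all called genes 91.7% were higher, against 71.1% after median-of-ratios scaling (431 higher, 175 lower) and 74.5% after quantile normalization (328 higher, 112 lower). The causes of these changes were not tested.

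With the replicate number as a block, 1015 genes and 4 members were called, and Jak2 passed (limma, BH-adjusted p = 0.0177). Libraries with the same number share only that number: their deviations from the group means correlated at 0.032, 0.0607 and 0.193, and only the libraries numbered 3 correlated best with their own number. Depth is unknown, so the lowest members (Tal1 and Epor in lean libraries) have an unknown counting error.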

Other observations

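Some genes of the same pathways stayed under the filter and were not tested. Trim58, a ubiquitin ligase of late red cell precursors, was at 0.05 to 0.07 FPKM in lean libraries and at 1.19, 0.29 and 2.19 FPKM in obese 1, 2 and 3. Gab1, a docking protein of receptor signalling, was at 0.09 to 0.17 FPKM in lean and 0.48 to 0.61 FPKM in obese libraries, without overlap. Erfe, the hormone that erythropoietin induces in red cell precursors, was at 0.04 to 0.09 FPKM in lean and at 0.22, 0.07 and 0.31 FPKM in obese 1, 2 and 3, so its groups overlapped. Tal2, Zfpm2 and Epo were listed at 0 in all 6 libraries.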
